A study of Mus musculus with 11 samples.

Results

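The forkhead family comprises transcription factors that share a winged-helix DNA-binding domain. The 39 mouse Fox genes listed for this account were each taken as the annotated gene body plus 5 kb on both sides (GRCm38/mm10), and all 39 were found among 21631 protein-coding genes on chromosomes 1 to 19 and X of the RefSeq table. The rule set 10 broadly expressed members (Foxk1, Foxk2, Foxo1, Foxo3, Foxo6, Foxm1, Foxn2, Foxp1, Foxp2 and Foxp4) against the other 29, called lineage-specific here. The rule itself uses no measured value. Expression was not measured, so the class names describe what the genes are known for and not their activity in these cells.

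The DNA came from E14 mouse embryonic stem cells, a 129/Ola line grown in medium with serum and leukemia inhibitory factor. Every sample was of this 1 line, with no genotype or treatment contrast, and differed by the antibody, the number of cells, the read length and the bisulfite step. In CUT&Tag-BS, an antibody against a histone mark directs a transposase to the marked chromatin, the cut fragments receive methylated adapters, and bisulfite then shows which CpGs of those same fragments were methylated. The 8 bisulfite libraries were H3K4me1 and H3K9me3, each in run 1 (35 bp reads) and run 2 (75 bp reads), and H3K27me3 from 4000, 20000, 100000 and 250000 cells, and 3 control libraries, 1 per mark, were made without bisulfite. All but the smaller H3K27me3 libraries used 250000 cells.

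The libraries held from 378056 (H3K27me3, 4000 cells) to 37177077 CpG calls (H3K27me3, 250000 cells), and the member windows held 421854 calls of the deepest library, 43445 of H3K4me1 run 2 and 4853 of H3K9me3 run 2. CpGs called once in each run were in the same state for 97.6% of sites between the H3K4me1 runs, against 77.4% for 2 calls at a CpG within run 2, and for 95.9% against 83.5% in H3K9me3. The runs of a mark were therefore counted as 1 library, every condition has 1 sample, and no difference between conditions has a replicate check. H3K4me1 run 2, H3K9me3 run 2 and H3K27me3 from 250000 cells, the deepest of each mark, are the libraries meant where none is named. The windows of 10 embryonic stem cell genes, Pou5f1, Nanog and Sox2 among them, all had an H3K4me1 peak (median cover 46.1%), and 1 of them, Esrrb, had an H3K27me3 peak, while all 6 fibroblast, 3 neural and 3 endoderm marker genes had one. H3K4me1 peaks were also present at 4 of the 6 fibroblast, 2 of the 3 neural and all 3 endoderm genes, with median covers of 1.94%, 15.6% and 6.68%.

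Forkhead factors mostly bind DNA as monomers, and several, the Foxa proteins first, can bind sites in closed chromatin and are known for opening it during development. Most subfamilies are switched on in particular germ layers and organs, whereas Foxo factors act downstream of insulin and Akt signalling, Foxm1 drives cell-division genes, and Foxk and Foxp proteins work mostly as repressors in many tissues. In embryonic stem cells, developmental regulators that are not yet in use are commonly held by Polycomb, whose enzyme places H3K27me3. H3K4me1 marks enhancers and the flanks of promoters, and H3K9me3 marks heterochromatin and silenced repeats.

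H3K27me3 covered most of the lineage-specific genes and little of the broadly expressed ones. A peak of the 250000-cell library overlapped the window of 26 of 29 lineage-specific members and 6 of 10 broadly expressed members, against 37.7% of all protein-coding genes. The whole window lay in peaks for 15 lineage-specific members and 0 broadly expressed ones, against 1.32% of all genes. The median share of the window in peaks was 100% for the lineage-specific members, 0.862% for the broadly expressed ones and 0% for all genes. The windows differ in length, with a median of 13.7 kb, 69.0 kb and 27.3 kb in that order, which moves both kinds of count. In kilobases, which do not divide by the window, the median covered length was 11.6 kb for the lineage-specific and 0.879 kb for the broadly expressed members, and at least 5 kb was covered in 25 of 29 against 4 of 10, and in 21.3% of all genes. Within 1 kb of the gene start, where all windows are equally long, 24 of 29 and 5 of 10 members had a peak, against 26.9% of all genes. In the plot of cover by library, the lineage-specific rows form a block in the H3K27me3 columns.

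**Figure D1:**
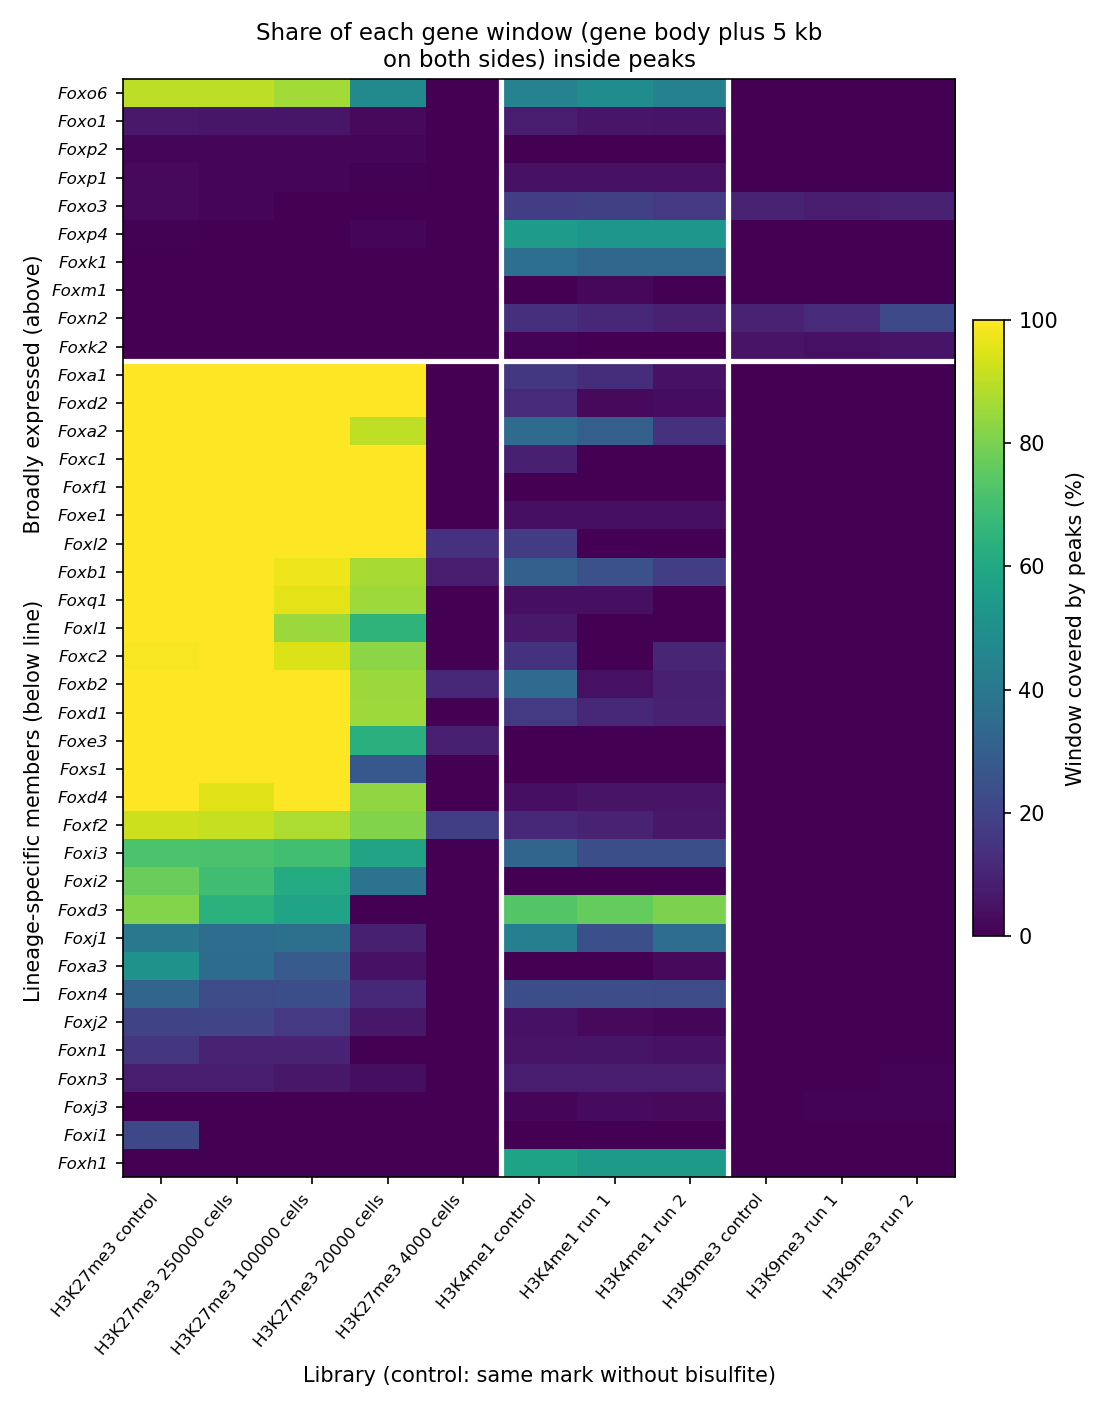
Share of each member's window (gene body plus 5 kb on both sides, in percent, color scale) inside the peaks of the 11 libraries. The 10 broadly expressed members stand above the white line and the 29 lineage-specific ones below, each ordered by H3K27me3 cover at 250000 cells; 15 lineage-specific windows reach 100% there, and Foxo6 at 89.9% is the only broadly expressed member above 10%.

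The lineage-specific genes were read by what they are known for. Of the endoderm and midline regulators, Foxa1 and Foxa2 lay wholly in H3K27me3 peaks and Foxa3, which acts in liver and gut, had 35.4% of its window covered. All 6 genes listed as mesodermal (Foxc1, Foxc2, Foxf1, Foxf2, Foxl1 and Foxs1) had peaks, 5 of them over the whole window and Foxf2 over 91.2%. Of a mixed group of 12 mostly ectodermal and placode genes (Foxb1, Foxb2, Foxd1, Foxd2, Foxd3, Foxd4, Foxe1, Foxe3, Foxi1, Foxi2, Foxi3 and Foxq1), 11 had a peak and 7 were wholly covered, with Foxi1 the exception. Foxj1 (motile cilia), Foxl2 (ovary), Foxn1 (thymus epithelium) and Foxn4 (retina and spinal cord) all had peaks, over 35.9%, 100%, 9.38% and 23.1% of their windows. Foxj2, Foxj3 and Foxn3, which are widely expressed although outside the families the rule names, had 21.0%, 0% and 7.81%. Foxh1, the partner of Smad2 in Nodal signalling, had none.

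The 15 whole windows lay in 13 distinct peaks of 14.9 to 51.6 kb (median 29.6 kb), while the median of all 13914 peaks of that library was 3.21 kb and 16.4% were at least 10 kb wide. A single peak of 44.0 kb (chr4:114889326-114933341) held both Foxd2 and Foxe3, and 1 of 24.7 kb (chr8:121111055-121135750) held Foxc2 and Foxl1, whose windows share 1211 bp, so these are not independent members. Among the fully covered members, Foxa1, Foxd2, Foxa2, Foxc1, Foxf1 and Foxe1 had the most calls, from 22523 to 31497, and are the ones described below; calls broke the tie after values were seen. Foxa1, an endoderm pioneer factor, lay in a 29.9 kb peak (chr12:57530167-57560047) and its cover was 0% with 4000 cells and 100% with 20000, 100000 and 250000 cells and in the control. Foxa2, which patterns endoderm, node and floor plate, lay in a 31.6 kb peak, with cover of 0%, 90.4%, 100%, 100% and 100% in the same order. Foxc1 (eye and skeletal mesenchyme), Foxd2, Foxe1 (thyroid) and Foxf1 (lung and gut mesenchyme) lay in peaks of 29.6, 44.0, 30.2 and 27.5 kb. Each of these 4 was at 0% with 4000 cells and at 100% in the other H3K27me3 libraries, so only the shallowest library was low.

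The promoter sequences show the CpG content of some members with full H3K27me3 cover and some without a peak. They are the 250 bases before the RefSeq gene start, 5′ to 3′ on the gene's strand (RefSeq, GRCm38.p6), with each CpG in capitals. The first 3 come from the wholly H3K27me3-covered members among the 25 that have an entry. Cover is tied there, and the 3 with the most calls were taken. The next 3 are the ones of those 25 without an H3K27me3 peak. Foxd3 and Foxn1 were added after their values were seen, for a start free of H3K27me3 between peaks and for a methylated promoter.
Foxa1, chr12:57546112-57546361, minus strand: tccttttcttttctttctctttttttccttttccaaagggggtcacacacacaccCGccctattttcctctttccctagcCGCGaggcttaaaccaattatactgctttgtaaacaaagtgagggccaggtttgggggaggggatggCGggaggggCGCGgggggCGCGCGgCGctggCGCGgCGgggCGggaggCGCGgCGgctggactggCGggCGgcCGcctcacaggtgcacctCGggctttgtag
Foxd2, chr4:114908899-114909148, minus strand: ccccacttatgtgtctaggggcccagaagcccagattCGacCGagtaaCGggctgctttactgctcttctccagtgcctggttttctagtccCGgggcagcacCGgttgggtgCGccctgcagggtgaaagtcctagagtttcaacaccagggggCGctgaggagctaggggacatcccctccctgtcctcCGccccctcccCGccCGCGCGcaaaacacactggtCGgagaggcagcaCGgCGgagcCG
Foxa2, chr2:148046970-148047219, minus strand: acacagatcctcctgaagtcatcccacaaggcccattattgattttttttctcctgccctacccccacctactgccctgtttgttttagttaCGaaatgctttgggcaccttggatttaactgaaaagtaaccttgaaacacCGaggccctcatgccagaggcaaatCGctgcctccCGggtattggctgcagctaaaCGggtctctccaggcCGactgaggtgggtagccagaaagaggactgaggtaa
Foxk2, chr11:121259737-121259986, plus strand: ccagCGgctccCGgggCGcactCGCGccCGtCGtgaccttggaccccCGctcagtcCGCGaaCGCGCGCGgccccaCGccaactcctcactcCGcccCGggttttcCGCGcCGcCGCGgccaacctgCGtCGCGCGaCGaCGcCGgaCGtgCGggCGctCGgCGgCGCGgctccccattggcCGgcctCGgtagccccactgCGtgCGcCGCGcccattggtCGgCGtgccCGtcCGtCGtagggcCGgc
Foxi1, chr11:34208090-34208339, minus strand: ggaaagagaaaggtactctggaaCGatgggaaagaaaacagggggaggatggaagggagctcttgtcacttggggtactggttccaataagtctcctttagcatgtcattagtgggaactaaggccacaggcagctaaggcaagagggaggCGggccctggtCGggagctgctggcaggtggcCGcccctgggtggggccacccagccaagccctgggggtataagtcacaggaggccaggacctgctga
Foxj3, chr4:119539411-119539660, plus strand: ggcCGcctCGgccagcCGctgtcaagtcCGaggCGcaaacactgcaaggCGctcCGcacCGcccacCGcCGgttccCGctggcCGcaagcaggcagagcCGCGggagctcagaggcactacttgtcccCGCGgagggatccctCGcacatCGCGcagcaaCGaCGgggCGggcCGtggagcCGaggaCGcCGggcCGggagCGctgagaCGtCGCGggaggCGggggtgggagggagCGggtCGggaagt
Foxd3, chr4:99656049-99656298, plus strand: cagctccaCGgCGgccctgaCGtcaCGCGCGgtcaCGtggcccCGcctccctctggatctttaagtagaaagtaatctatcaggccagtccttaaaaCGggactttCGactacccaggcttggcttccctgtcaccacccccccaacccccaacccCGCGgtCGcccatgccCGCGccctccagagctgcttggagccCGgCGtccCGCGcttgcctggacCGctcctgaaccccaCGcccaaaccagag
Foxn1, chr11:78386609-78386858, minus strand: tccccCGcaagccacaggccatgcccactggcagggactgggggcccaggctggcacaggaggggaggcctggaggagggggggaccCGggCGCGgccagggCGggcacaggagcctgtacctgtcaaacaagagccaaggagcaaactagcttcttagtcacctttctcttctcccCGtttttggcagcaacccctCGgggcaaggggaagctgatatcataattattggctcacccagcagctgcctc

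These stretches held 21, 16 and 6 CpGs at Foxa1, Foxd2 and Foxa2, and 48, 4 and 34 at Foxk2, Foxi1 and Foxj3. The sequences without H3K27me3 thus included the one with the most CpGs of the 25 (Foxk2) and one with almost none (Foxi1, where only Foxi2 with 3 had fewer). Foxd3 had 21 CpGs and Foxn1 had 7. The median was 27 over the 5 broadly expressed members with an entry, 16.5 over the 20 lineage-specific ones and 10 over the 17274 protein-coding genes with one, of which 92.9% held at least 1 CpG. In the H3K27me3 library, 0 of 405 calls in the Foxa1 stretch were methylated, which allows a level of up to 0.741%, and 5 of 1079 at Foxd2 (0.463%, 95% Wilson interval 0.198 to 1.08%). At Foxa2 the count was 13 of 277 (4.69%, 2.76 to 7.86%). The stretches without the mark were thinly read: 0 of 24 calls were methylated at Foxk2, 1 of 44 at Foxj3 and 3 of 3 at Foxi1. At Foxd3, 0 of 93 calls in the H3K27me3 library and 0 of 97 in H3K4me1 were methylated, and at Foxn1, 6 of 7. Calls on 1 fragment or from copies of it are not independent molecules, so these intervals and limits cover counting error only.

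The broadly expressed members varied in H3K27me3. Foxk1 and Foxk2, Foxm1 and Foxn2 had no peak in any of the 5 H3K27me3 libraries, control included. Foxo1, an effector of insulin signalling, and Foxp1 and Foxp2, repressors with roles in lung, heart, lymphocytes and brain, had a peak over the gene start and little more, of 5.54, 6.36 and 11.6 kb. These covered 6.03% of the Foxo1 window and, together with a 3.61 kb peak inside the gene, 1.64% of the Foxp1 window, and 1.71% of the Foxp2 window; the last 2 windows are 607 and 551 kb long. Foxo3 had a 1.67 kb peak just inside the gene, called at 250000 cells and in the control (2.60% of the window) but in none of the smaller libraries. A 3.51 kb peak reached 0.0890 kb into the window of Foxp4, which is the whole of its overlap.

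Foxo6, a Foxo factor known mainly from brain, stood with the lineage-specific genes. Its H3K27me3 cover was 0% with 4000 cells, 47.6% with 20000, 86.2% with 100000, 89.9% with 250000 and 90.2% in the control, in peaks of 20.2 and 16.8 kb (chr4:120252163-120272401 and chr4:120275190-120291988). The next broadly expressed member, Foxo1, was at 6.03%. When both Foxo6 and Foxp2 are left out of the class, 4 of the other 8 broadly expressed members had an H3K27me3 peak.

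H3K4me1 was present in most windows of both classes. Peaks overlapped 20 of 29 lineage-specific and 7 of 10 broadly expressed windows, against 41.0% of all genes, and the median cover was 5.01% and 7.52%. In kilobases the order was wider apart, with a median of 0.879 kb per lineage-specific and 9.41 kb per broadly expressed window. The broadly expressed windows are longer (median 69.0 kb against 13.7 kb), and covered kilobases, as in the 5 kb count below, can grow with length. Within 1 kb of the start, 12 of 29 lineage-specific and 4 of 10 broadly expressed members had an H3K4me1 peak, against 16.5% of all genes. This count moved with the run: in run 1 it was 11 and 7 (18.4% of all genes) and in the control 17 and 5 (18.7%). At least 5 kb was covered in 7 of 10 broadly expressed and 5 of 29 lineage-specific windows, against 12.5% of all genes, the lineage-specific ones being Foxd3, Foxh1, Foxj1, Foxn3 and Foxn4.

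Foxd3 and Foxh1, a pluripotency and neural crest regulator and a Nodal-pathway factor, both of which are known to act in embryonic stem cells or the early embryo, had the highest shares of their windows in H3K4me1 peaks in run 2. In kilobases they had 9.92 and 7.505, below 6 longer windows, of which Foxp4 (35.4 kb), Foxn3 (29.98 kb) and Foxp1 (26.4 kb) had most. The Foxd3 cover was 76.4% in run 1, 80.2% in run 2 and 73.3% in the control. For Foxh1 it was 54.6%, 54.4% and 58.0%, with a 6.87 kb peak over the start. Foxp4 followed with 52.6%, 52.4% and 54.7%, Foxo6 with 48.7%, 43.8% and 44.5%, in the same order. Next came Foxj1 with 24.4%, 35.7% and 43.3%, and Foxk1 with 33.0%, 33.4% and 36.4%. Foxj1 varied most of these 6 genes, and it ranked above Foxk1 in run 2 and the control and below it in run 1. Foxc1, Foxl1, Foxl2, Foxe3, Foxf1, Foxi1, Foxi2, Foxq1 and Foxs1, all lineage-specific, and Foxk2, Foxm1 and Foxp2 had no H3K4me1 peak in run 2.

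Both H3K27me3 and H3K4me1 peaks were present in 23 of 39 windows (18 lineage-specific, 5 broadly expressed), against 19.5% of all genes. In 20 of the 23 the peaks shared bases. In 12 lineage-specific members every H3K4me1 base lay inside H3K27me3, which for a wholly covered window is so by construction. In several members with much H3K4me1 the marks lay apart at least in part. At Foxd3 the H3K27me3 peaks (chr4:99652025-99653608 and chr4:99657342-99664373) left out the gene start, an 8.69 kb H3K4me1 peak ran over it, and 64.4% of the H3K4me1 bases were also in H3K27me3. Foxd3 H3K27me3 cover was 0% with 4000 and 20000 cells, 58.4% with 100000, 64.0% with 250000 and 81.5% in the control. At Foxp1 4.79% and at Foxo3 0.800% of the H3K4me1 bases lay in H3K27me3, and at Foxo1, Foxp4 and Foxn1 none did, whereas at Foxo6 90.7% did. The 2 marks were read in separate libraries, so whether they sat on the same chromosomes cannot be told.

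H3K9me3 peaks over the family were about as frequent as over all genes. Peaks of run 2 overlapped 3 of 10 broadly expressed windows (Foxk2, Foxn2 and Foxo3) and 2 of 29 lineage-specific ones (Foxj3 and Foxn3), against 15.5% of all genes, and 0 of 39 promoter windows, against 1.50%. Over the whole family 12.8% of windows had a peak, near the background. The classes lay on either side of it, at 30% and 6.90%, on few genes. The promoter count is also near its background. These 5 genes are among the longer windows, from 59.8 to 384 kb. Foxn2 had the most, with cover of 12.1% in run 1, 22.05% in run 2 and 9.66% in the control, from peaks of 6.87 and 6.32 kb inside the gene (chr17:88450865-88457735 and chr17:88467263-88473583). Foxo3 had 7.95%, 9.26% and 9.69%, from a peak of 8.04 kb inside the gene and 1 of 7.46 kb at the edge of its window. Foxk2 had 4.54%, 5.61% and 5.14%, from a 3.36 kb peak at the far end of the gene. These 3 were seen in all 3 lists, while Foxj3 (1.01%, 1.01% and 0%) and Foxn3 (0%, 1.06% and 0.261%) each were missing from 1.

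Promoter methylation was low in most members and high in 3. The promoter window is the 1 kb on each side of the gene start, and a level is the share of methylated calls among all calls there, given where at least 20 calls were made. In the H3K27me3 library the median was 0.301% over 9 broadly expressed members, 3.58% over 28 lineage-specific ones and 5.05% over all genes. All 9 broadly expressed promoters and 17 of 28 lineage-specific ones were below 5%, against 49.5% of all genes. From 5 to 50% lay 8 lineage-specific ones (37.6% of all genes), and above 50% lay 3 of the 37 members (12.9% of all genes), so the lineage-specific counts are not far from the background. The broadly expressed values ran from 0% to 4.03% (Foxp2). At Foxk1, Foxk2, Foxn2 and Foxp4 none of 82, 27, 32 and 78 calls was methylated, which allows levels of up to 3.66%, 11.1%, 9.38% and 3.85%. These 4 promoters carry no H3K27me3 peak and are read from few fragments of that library. In the H3K4me1 library, where the same 4 had 74 to 267 calls, they were at 6.74%, 4.05%, 2.63% and 1.83%. The H3K4me1 medians were 2.54% over 10 broadly expressed and 3.01% over 25 lineage-specific members, closer together than in H3K27me3.

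The 3 highest were Foxi1, Foxn1 and Foxs1. Foxi1, which specifies ion-transporting cells of the inner ear, kidney and airway, had a promoter level of 95.4% (65 calls, 95% Wilson interval 87.3 to 98.4%) at 250000 cells and 89.9% (69 calls) at 100000 cells. Foxn1, the regulator of thymus epithelium, had 91.7% (48 calls, 80.4 to 96.7%) and 89.7% (39 calls). Foxs1, a gene of pericytes and sensory neurons, had 62.3% (191 calls, 55.3 to 68.9%) at 250000 cells, 64.3% (129 calls) at 100000 and 63.6% (33 calls) at 20000. Foxi1 had no peak of any mark in a bisulfite library, although the H3K27me3 control covered 21.5% of its window. Foxs1, in contrast, lay wholly in a 51.6 kb H3K27me3 peak (chr2:152907557-152959156), with cover of 0%, 27.7%, 100%, 100% and 100% from 4000 cells to the control, and its 927 window calls were 76.4% methylated. Their promoter windows held 37, 32 and 49 CpGs, against a median of 147 over the 39 members and 63 over all genes, and among the other 36 members only Foxn3 with 23 had fewer than 64. The start of Foxs1 was inferred from CpG content, as were those of Foxb1, Foxc2, Foxe1, Foxf1, Foxh1, Foxj1, Foxk1, Foxl1, Foxm1, Foxn2, Foxo6, Foxp2 and Foxq1. The choice of the CpG-richer end bears on the promoter levels and CpG counts of these 14.

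Intermediate promoters were those of Foxa3 (21.6%, 677 calls), Foxi2 (20.7%, 3717 calls), Foxj1 (10.6%, 1436 calls) and Foxl1 (10.1%, 7365 calls). Foxa3 had the largest differences from 250000 cells at 20000 and 100000 cells, with 32.3% (31 calls), 15.8% (385 calls) and 21.6% from 20000 to 250000 cells. Foxi2, an ectodermal relative of Foxi1, was at 19.04%, 22.4% and 20.7%, and 31.0% of 58 calls in the H3K4me1 library were methylated. Of the most covered members, Foxa1 was at 1.87% (5944 calls), Foxa2 at 5.35% (4414), Foxc1 at 2.75% (8077), Foxd2 at 1.11% (6871), Foxe1 at 4.38% (7586) and Foxf1 at 1.23% (7571). Foxd3, whose start lies outside the peaks, had 0 of 369 calls methylated, which allows up to 0.813%. The RefSeq start of Foxn3 lies inside the annotated gene, with 11 promoter calls, while a 20.8 kb H3K27me3 peak covers the far end of the gene, so no promoter level is given for it; Foxm1 had 17 calls, none methylated. The plot of promoter methylation against cover shows low levels at both ends of the cover scale.

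**Figure D2:**
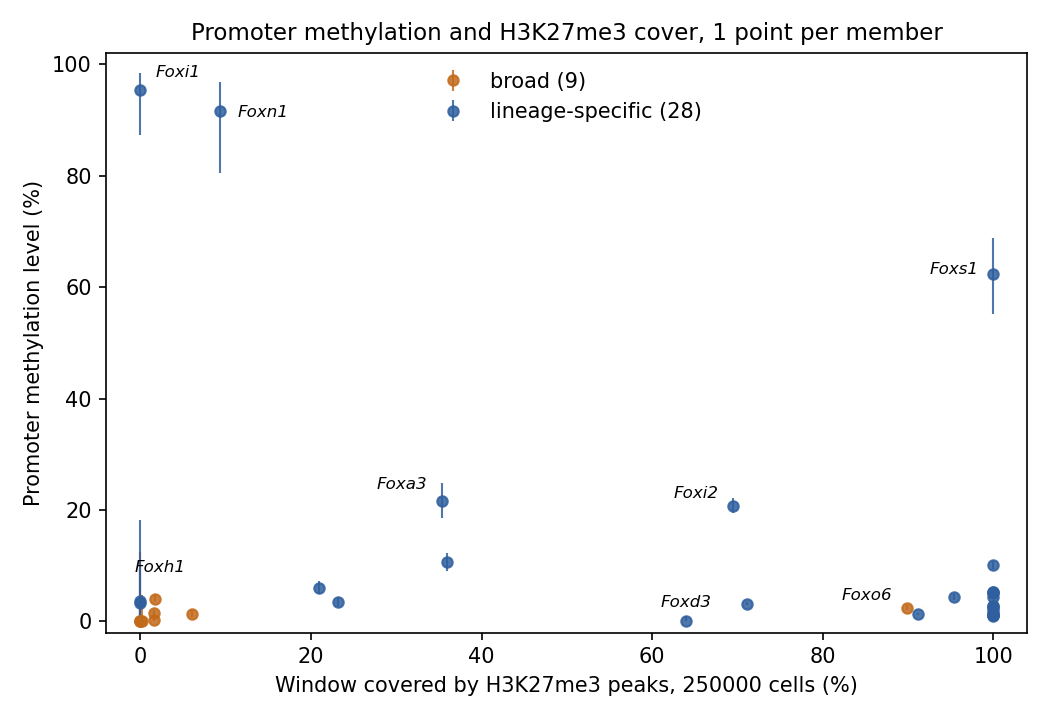
Promoter methylation level (percent, 1 kb on each side of the start) against the share of the window in H3K27me3 peaks (percent), both from 250000 cells, for the 37 members with at least 20 promoter calls; bars are 95% Wilson intervals. Foxi1 and Foxn1 at low cover and Foxs1 at full cover lie above 60%, and 26 members lie below 5%.

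Methylation was lowest near the start and higher farther away, though it did not rise steadily. No such profile was made over all genes, so a dip particular to the family is not shown. In 500 bp bins of the H3K27me3 library, the median level over lineage-specific members was 2.31% in the 500 bp before the start and 0.917% in the 500 bp after it. It reached 32.4% in the bin centred 1250 bp before and 29.9% in the bin centred 1750 bp after the start, and 63.2% and 72.2% in the bins centred 4750 bp away on either side, where 17 and 21 members had at least 10 calls. Over broadly expressed members it was 0.124% before and 0.326% after the start, with 7 members, and 41.7% in the bin centred 1750 bp after it. In the bin centred 2250 bp after the start it was 7.14%, with 5 members. In H3K4me1 the lineage-specific median stayed at or below 3.50% from the start to the bin centred 2250 bp after it. It was 22.1% in the bin centred 3250 bp after the start (9 members) and 5.93% in that centred 4750 bp after it (6 members).

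**Figure D3:**
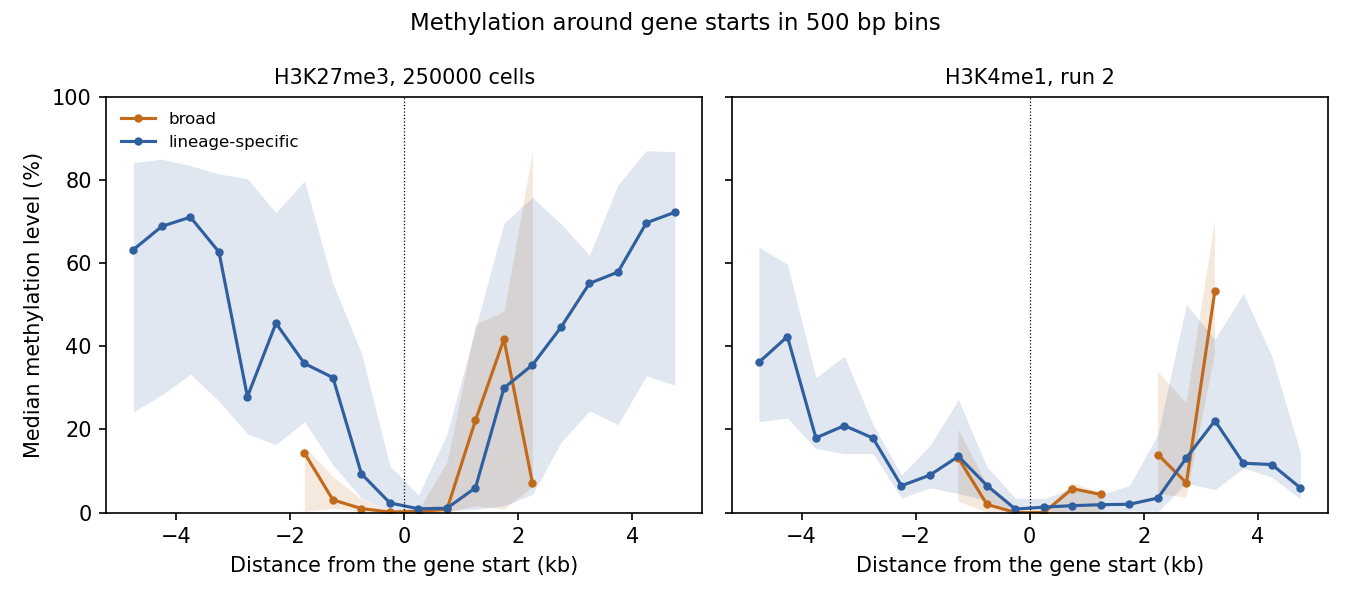
Median methylation level (percent) in 500 bp bins by distance from the gene start (kb, negative is upstream), for H3K27me3 from 250000 cells and H3K4me1 run 2; shading spans the quartiles over members, and a bin is drawn where at least 5 members had 10 or more calls. Both classes lie near 0 at the start, and the lineage-specific H3K27me3 median is above 60% at both outer edges.

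Inside H3K27me3 peaks the DNA was less methylated than in the rest of the same window. At least 20 calls on each side of the peak borders were available for 14 members. The level outside minus the level inside had a median of 65.9 percentage points over 5 broadly expressed members and 24.0 points over 9 lineage-specific ones, and was at least 20 points in 10 of 14, against 74.3% of all genes with such calls, a share close to that background. At Foxp1 the level was 5.39% inside (5529 calls) and 80.8% outside (2421 calls), at Foxo1 6.78% and 77.5%, at Foxp2 14.3% and 80.2%, and at Foxo6 15.6% and 79.4%. Foxn4 and Foxj2 were alike, at 11.9% against 78.2% and 15.8% against 80.3%. In 5 members the difference was smaller or turned. Foxd3 was at 11.1% inside (1255 calls) and 1.83% outside (547 calls), the only one with more inside. Foxi3 was at 11.6% inside and 17.5% outside, Foxa3 at 31.5% and 47.8%, Foxn1 at 62.4% and 81.9%, and Foxn3 at 52.8% and 76.8%. Reads outside peaks are background of a library drawn to the mark.

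Over whole windows, methylation differed by mark. In the H3K27me3 library the median window level was 30.3% over broadly expressed members, 17.4% over lineage-specific ones and 42.5% over all genes. The order of the classes turned at CpGs with at least 5 calls, with 10.3% over 6 broadly expressed and 14.4% over 27 lineage-specific members. In H3K4me1 it was 35.5%, 10.5% and 31.9%, and in H3K9me3 82.3% (8 members), 39.3% (13 members) and 73.3%. The lineage-specific H3K9me3 values rest on few calls outside any H3K9me3 peak in 11 of 13 members, and at 50 calls or more only 2 members remain. Of the 8 broadly expressed members, only Foxk2, Foxn2 and Foxo3 had an H3K9me3 peak, so the others were also read outside peaks. The plot of window levels shows the H3K9me3 points to the right of the others for most broadly expressed members.

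**Figure D4:**
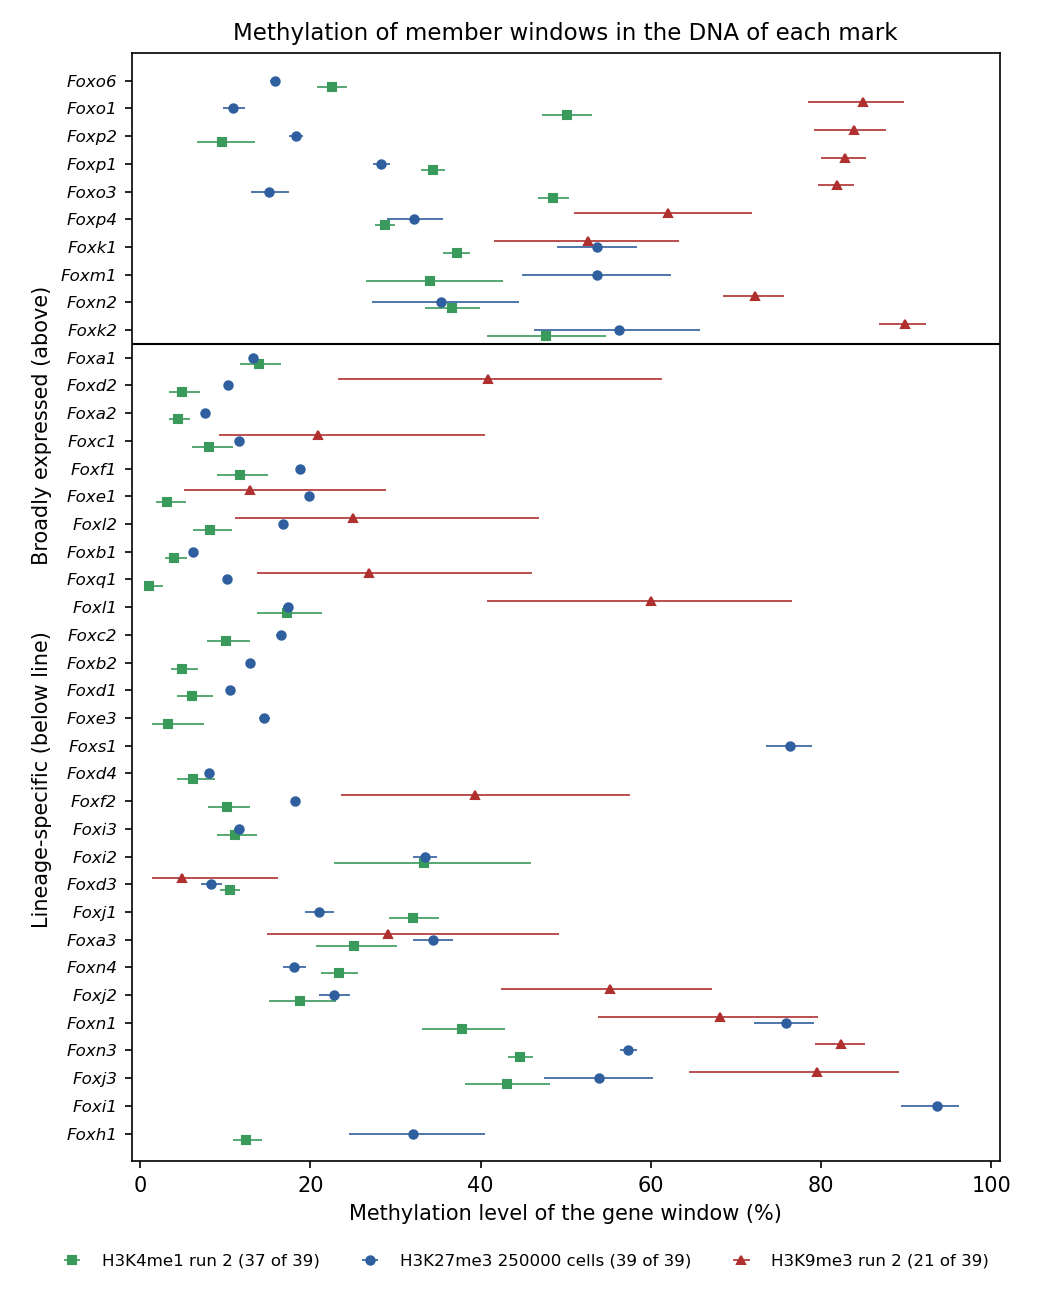
Methylation level of each member window (percent) in H3K4me1 run 2 (green squares), H3K27me3 from 250000 cells (blue circles) and H3K9me3 run 2 (red triangles), with 95% Wilson intervals, where at least 20 calls were made. Broadly expressed members stand above the line; most of their H3K9me3 points lie above 60%, while most lineage-specific H3K27me3 and H3K4me1 points lie below 20%.

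To compare marks on the same DNA, calls were compared at CpGs read in both libraries with Fisher's exact test, two-sided, Benjamini-Hochberg adjusted over all genes with at least 20 such calls in each. A window was called at an adjusted p below 0.05 with a difference of at least 20 percentage points. With 1 library a mark, these tests compare libraries and not marks. Calls were pooled over the shared CpGs of a window, without pairing by CpG. The p-values also take calls as independent, which calls from 1 fragment are not. Between H3K27me3 and H3K4me1, 36 members were tested and 1 was called, against 3.18% of all genes called higher in H3K27me3 and 3.35% lower. That member was Foxn1, at 56.3% in H3K27me3 (158 calls) and 34.9% in H3K4me1 (209 calls), a difference of 21.4 points (Fisher's exact test, adjusted p = 0.000383). It was 12.2 points when each of its 85 shared CpGs counted equally, and the call was not made with H3K4me1 run 1 or the 100000-cell library. Foxp1 came closest in the other direction, at 9.06% in H3K27me3 and 25.7% in H3K4me1 (a difference of -16.6 points, Fisher's exact test, adjusted p = 1.14e-53), followed by Foxn3 (-14.0 points), Foxi2 (-11.6, adjusted p = 0.116 in the same exact test), Foxo1 (-11.3) and Foxo3 (-10.1). With equal weight per CpG these became 6.59, -0.76, 5.11, 3.19 and 2.64 points, so the sign changed in all of these 5 but Foxn3.

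Calls of the H3K9me3 library were more methylated than those of the H3K4me1 library in 5 of 11 members tested, against 24.7% of all genes higher and 0.274% lower. These were Foxo1 (81.1% and 55.7%), Foxo3 (73.8% and 45.4%), Foxp1 (67.7% and 31.8%) and Foxp4 (50.0% and 26.3%) of 6 broadly expressed members, and Foxn1 (65.7% and 17.4%) of 5 lineage-specific ones, with adjusted p from 1.48e-18 (Foxo3) to 0.00604 (Foxo1). Against H3K27me3, the H3K9me3 level was higher in 5 of 18, a share close to the 30.9% of all genes higher (0.352% were lower). These were Foxp2 (81.0% and 29.2%), Foxn2 (74.6% and 23.1%), Foxo3 (67.5% and 29.2%), Foxn3 (81.0% and 42.7%) and Foxf2 (39.3% and 17.5%), with adjusted p from 2.26e-24 (Foxn3) to 0.0171 (Foxf2). Of the members called in either comparison, Foxo1, Foxp1, Foxp4, Foxn1, Foxp2 and Foxf2 had no H3K9me3 peak in run 2. Their H3K9me3 calls are therefore reads outside peaks, on as few as 35 calls at Foxn1 and 28 at Foxf2. The differences in both comparisons also depended on how calls spread over CpGs. With every shared CpG weighted equally, 2 of the first 5 (Foxn1 at 33.9 points and Foxo1 at 24.9) and 1 of the second 5 (Foxn2 at 29.9) still reached 20 points. Foxp4 then differed by 0.869 points, Foxn3 by -2.80 and Foxo3 from H3K27me3 by -1.87.

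Most lineage-specific H3K27me3 peaks were found again with 20000 cells, and few with 4000. Of the 26 lineage-specific members with an H3K27me3 peak at 250000 cells, 5, 24 and 26 also had one at 4000, 20000 and 100000 cells, and of the 6 broadly expressed ones 0, 5 and 5. Over all genes with such a peak the shares were 5.66%, 68.9% and 92.9%, and 2.15%, 26.1% and 35.8% of all genes had a peak in those libraries. Of the Pax genes with such a peak, 44.4%, 88.9% and 100% also had one at 4000, 20000 and 100000 cells. For the T-box genes the shares were 50%, 100% and 100%. At 4000 cells both families were thus above the lineage-specific forkhead members, at 19.2%. No test of these differences was made. The covered length relative to 250000 cells was 2.56%, 73.1% and 95.6% for lineage-specific members, 0%, 54.0% and 93.1% for broadly expressed ones and 0.834%, 43.1% and 86.8% for all genes. Calls fell with the cells, from 37177077 to 378056, so cell number and depth cannot be told apart. The 5 members seen with 4000 cells were Foxf2 (18.4% of its window), Foxl2 (14.1%), Foxb2 (10.99%), Foxe3 (8.61%) and Foxb1 (7.57%). Foxd3 and Foxn1 were the lineage-specific members with a peak at 100000 cells but none at 20000.

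**Figure D5:**
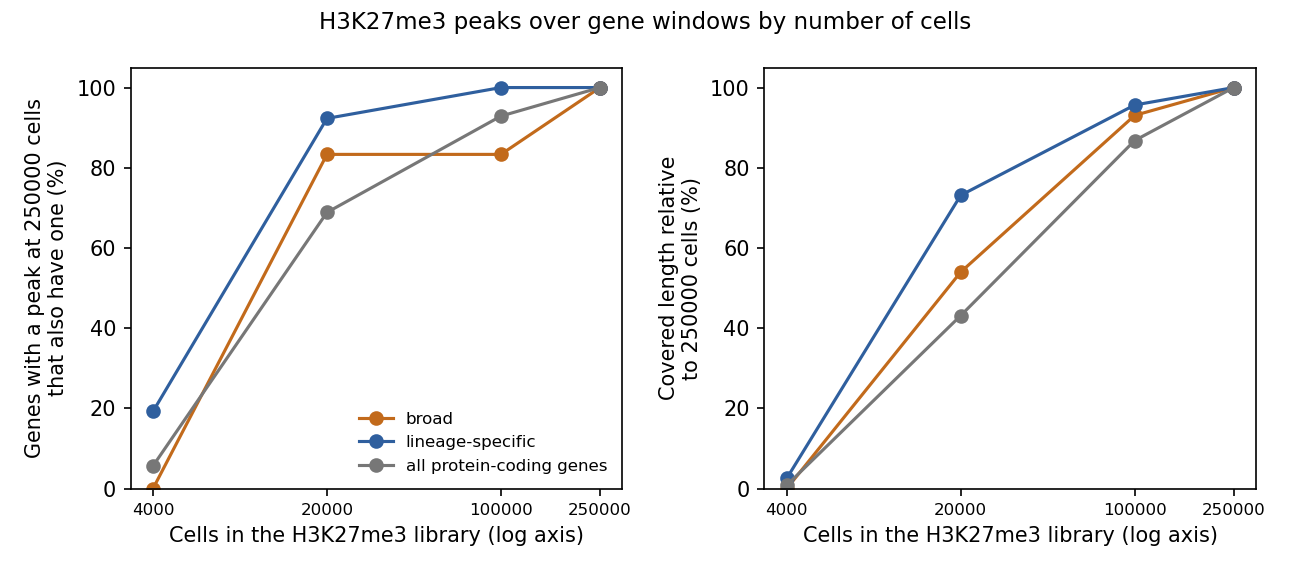
H3K27me3 peaks over gene windows by number of cells (log axis): left, genes with a peak at 250000 cells that also have one in the smaller library (percent); right, covered length relative to 250000 cells (percent). Lineage-specific members lie above all protein-coding genes at each smaller cell number, with 92.3% against 68.9% recovered at 20000 cells.

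Window methylation differed little between the larger libraries and more at 4000 cells. The median absolute difference from the 250000-cell level was 0.811 points over 39 members at 100000 cells, 1.43 points over 35 at 20000 and 5.95 points over 26 at 4000. The largest at 100000 cells was at Foxk2, with 23.1% of 39 calls against 56.2% of 96, a window without a peak. At 20000 cells it was at Foxk1, 32.4 points, with 21.3% of 75 calls against 53.7% of 428, and at 4000 cells at Foxa3, 28.1 points, with 62.5% of 24 calls. The 3 broadly expressed members with 20 calls at 4000 cells differed by a median of 11.5 points. Foxb1, read deeply in the larger libraries, was at 7.77% (103 calls), 6.97%, 5.94% and 6.25% (20889 calls) from 4000 to 250000 cells.

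The bisulfite step left most of the peaks over the family in place. For H3K27me3, 32 members had a peak in both the bisulfite library and the control and 1 in the control alone (Foxi1), where 41.6% of all genes had a control peak. The covered length was 0.938 times that of the control over the members and 0.838 times over all genes. For H3K4me1, 26 had peaks in both, Foxa3 in bisulfite alone, and Foxc1, Foxk2, Foxl1, Foxl2, Foxp2 and Foxq1 in the control alone, against 42.9% of all genes with a control peak. Several fully H3K27me3-covered genes had more H3K4me1 in the control: Foxb2 was at 34.8% against 4.35% and 8.70% in runs 1 and 2, Foxa2 at 34.8% against 30.2% and 14.1%, and Foxl2 at 17.6% against 0% and 0%. Over lineage-specific members, the H3K4me1 length in run 2 was 0.796 times that of the control, against 0.953 times over all genes, and over broadly expressed ones 0.908 times. For H3K9me3, 4 members had peaks in both and Foxj3 in bisulfite alone, and 10.8% of all genes had a control peak. The covered length was 1.56 times that of the control over the members in run 2, against 1.88 times over all genes. In run 1 it was 0.962 times, against 1.117, and Foxn3 had a peak in the control alone.

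Other developmental families were measured in the same way. H3K27me3 peaks overlapped 37.7% of all gene windows. They overlapped 9 of 9 Pax genes, with a median cover of 51.3%, and 10 of 16 T-box genes, with a median of 29.9%. Their windows are longer than those of the lineage-specific forkhead genes, with medians of 65.0 and 29.2 kb against 13.7 kb, and in kilobases the order turned, with median covered lengths of 28.1 kb (Pax), 14.8 kb (T-box) and 11.6 kb. Among partners of forkhead factors, 6 of 10 Nodal and Smad genes that work with Foxh1 had an H3K27me3 peak, with a median cover of 1.95%. Of the regulators and effectors of Foxo factors 4 of 10 had one, with a median cover of 0%. The latter count is near the 37.7% of all genes. Partner windows have a median length of 50.1 kb, against 27.3 kb over all genes, and longer windows meet a peak more readily. H3K4me1 peaks were present in 8 of 10 of each list, against 41.0% of all genes, with median covers of 17.2% and 12.8%. Nodal, Lefty1, Lefty2 and Tdgf1, the ligand, its inhibitors and its co-receptor, were among them.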

How the data were processed

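The authors deposited, for each CpG and each of the 8 bisulfite libraries, a count of methylated calls and a count of all calls, whole numbers without normalization per the file headers, and for each of the 11 samples and each mark a peak list of positions without scores. Per the submitters' processing notes, cutadapt 1.12, Bismark 0.23.0, Bowtie2 2.3.0, HOMER 4.10.3 and bedtools 2.29.2 and the build mm10 were used; which tool made which file, peak settings and the treatment of duplicate reads are not given in the sources used here. All count columns were used (0 were left out).

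From these, levels were computed as methylated over all calls, with 95% Wilson intervals, for chromosomes 1 to 19 and X. Gene positions came from RefSeq (GRCm38.p6). Starts came from its promoter table for 25 members and, for the other 14, from the gene end with more CpGs within 1 kb, which lies within 1 kb of the RefSeq start in 76.6% of 17274 genes that have both. A peak overlapped a window when they shared 1 bp. A level needs at least 20 calls, and where no call was methylated the upper limit is 3 calls out of the total. Marks were compared by Fisher's exact test (scipy 1.17.1) with Benjamini-Hochberg adjustment. The test was run beforehand on simulated independent calls, which does not show how it behaves where calls share a fragment. Each condition has 1 library, so no test across samples was made, and nothing shows that runs came from separate cultures. Alternatives changed the window, the peak list, the minimum calls, the weighting, the library and the classes.

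Named in full are the broadly expressed members, the 6 lineage-specific members with most H3K27me3 cover, those without such a peak, those with an H3K9me3 peak or a called difference, and the extremes of promoter methylation. Members, classes and lists were chosen with earlier results of these data known.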

Additional observations from a re-analysis of the deposited data

How the results depend on the processing

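Of 229 values recomputed under alternatives, 168 stayed within the limits set for a stable value (a median inside its 95% order-statistic interval, a count within 1.5 times) and 61 moved. These limits apply to each class alone; the order of the classes turned at CpGs with at least 5 calls, in H3K27me3 (10.3% broadly expressed, 14.4% lineage-specific) and H3K9me3 (89.8%, 3 members, and 92.9%, 1 member). Some of the 168 could not move, since leaving out run 1 of H3K4me1 or H3K9me3 recomputes the main run 2 library. The H3K9me3 median covers were 0% in every setting and say little about stability. The count of 168 is thus no measure of robustness. Weighting each shared CpG equally was added after seeing the data. No paired analysis was possible because no test runs across samples, and the shared numbers of H3K4me1 and H3K9me3 mark sequencing runs.

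With peaks required to cover at least 10% of a window, H3K27me3 counted 1 broadly expressed member, H3K4me1 4 broadly expressed and 8 lineage-specific, and H3K9me3 1 and 0; 3 members were then counted at 4000 cells, and 12 (H3K4me1) and 0 (H3K9me3) in both the bisulfite and control lists. At 50% cover the counts were 1 (H3K27me3, broadly expressed), 1 and 2 (H3K4me1) and 0 and 0 (H3K9me3). Within 1 kb of the start, H3K4me1 counted 4 and 12, H3K9me3 0 and 0, and 4000 cells 1 member, and the broadly expressed H3K27me3 median cover was 6.97%. With peaks of at least 2 kb, lineage-specific counts were 7 (H3K4me1) and 1 (H3K9me3). The unified list gave a lineage-specific H3K4me1 median of 9.47%. H3K9me3 counted 1 lineage-specific member in the control and in run 1, and 5 and 0 with Foxj2, Foxj3 and Foxn3 moved to the broadly expressed class.

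Window levels moved to 10.3% and 92.9% at CpGs with at least 5 calls as above, to 24.96% (H3K27me3, lineage-specific) as a mean of CpG levels, and to 68.8% (H3K9me3, lineage-specific, 2 members) at 50 calls. In the gene body alone lineage-specific medians were 8.87% (H3K27me3) and 69.6% (H3K9me3). Within 1 kb of the start, broadly expressed and lineage-specific medians were 0.301% and 3.58% (H3K27me3), 2.54% and 3.01% (H3K4me1) and 2.5% and 9.52% (H3K9me3, 1 member each). With 500 bp on each side, promoter medians were 1.68% (H3K27me3, lineage-specific) and 0% and 1.25% (H3K4me1). With 2 kb they were 3.29% and 6.24% (H3K27me3) and 6.64% (H3K4me1, broadly expressed).

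For H3K27me3 against H3K4me1, members called higher numbered 2 at 10 points and 0 within 1 kb of the start, with run 1, with 100000 cells or with equal weight. Those called lower numbered 2 over all CpGs of a window, 4 at 10 points and 1 with run 1. That 1 was Foxp1, while Foxn1 was no longer called with run 1, so no member changed direction there. H3K9me3 was called higher than H3K4me1 in 15 members over all CpGs, 0 within 1 kb, 3 with run 1 and 2 with equal weight. It was called higher than H3K27me3 in 13, 0, 2 and 1 members in the same order, and in 3 at 50 calls. Beyond fewer members tested (1 within 1 kb for H3K9me3), the cause was not tested.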
